A study of Homo sapiens with 16 samples.

Results

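The genes described here are 9 enzymes and regulatory proteins of glycogen metabolism. GYS1, GBE1 and UGP2 lie on the side of synthesis and PYGB and PYGL on that of breakdown, with the phosphoglucomutase PGM1 beside them. PPP1R3C and PPP1R3B target protein phosphatase 1 to glycogen, and STBD1 tethers glycogen to membranes. These genes were taken by gene symbol from the deposited table of estimated counts, in which all 9 were found among 63187 genes. All 9 also passed the filter on low counts, which kept 19530 genes. Their levels were set side by side across the 4 groups of the study within each batch, and the libraries of batch 2 were set against those of the other batches.

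RNA was sequenced in 16 libraries from an established human neuroblastoma cell line with amplified MYCN, given as SK-N-BE(2) in the sample titles and as BE2c in the library names. The 4 groups of 4 libraries were cells that the study design calls wild type (WT), with no transfection named, and cells transfected with a form of HIF-2α, the oxygen-regulated transcription factor encoded by EPAS1. FL was the full-length protein. The study design writes the other forms with a Δ before N-CTAD and c-IDR, and NCTAD and cIDR are taken to lack the region named. All groups were grown in the same medium with 10% serum at 21% oxygen, so no group was grown at low oxygen per the labels. The labels do not give the vector, its promoter, the time after transfection, whether the transfected cells were a clone or a pool, or whether the WT cells received an empty vector, and transfection as such cannot be told apart from HIF-2α in a comparison with WT. Each replicate number is also given as a batch number, 1 to 4, without saying what the batches shared. A library is named here by its group and batch, so that WT 2 is the WT library of batch 2. Nothing in the labels says that the replicates were separate cultures, and p-values then measure only the spread between these samples.

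Glycogen is the branched glucose store of animal cells. PGM1 (phosphoglucomutase) and UGP2 turn glucose phosphate into UDP-glucose, GYS1 (glycogen synthase of most tissues) adds it to a growing chain and GBE1 makes the branches. The phosphorylases release glucose phosphate from chain ends, and the isoforms are named for the tissues in which they dominate, PYGB for brain and PYGL for liver. The PPP1R3 proteins bring protein phosphatase 1 to glycogen, where it activates the synthase and inactivates phosphorylase. In several cell types low oxygen is known to raise GYS1, GBE1, PPP1R3C and PYGL, in part through HIF-1, the relative of HIF-2, and such cells build up glycogen.

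The libraries held 38.57 to 56.07 M counts (M for mega), and batch 2 was within this range. EPAS1 lay between 12.96 and 28.13 CPM (counts per 1 M counts) in the WT libraries and between 1320 and 5852 CPM in the transfected ones, without overlap. Of 9 adrenergic neuroblastoma markers, all passed the low-count filter, with TH lowest at a median of 2.37 CPM and MYCN at 2785 CPM. The 3 hepatocyte markers summed to 1 to 13 counts a library and the 3 leukocyte markers to 0 to 4 counts. Of the skeletal muscle markers only ACTA1 passed the filter, with 99 to 224 counts. The 6 mesenchymal markers summed to 29.6 to 57.1 CPM.

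The promoters of GBE1, PPP1R3C, PYGB and PYGL are shown because these genes moved most with batch 2 or with a construct among the members that have an entry in the table used, and because HIF proteins are known to bind sites with a core of ACGTG or, in the same place, of GCGTG. Each line gives the 250 bases before the annotated start from RefSeq, build GRCh38.p14, written 5′ to 3′ on the strand of the gene. Capitals mark these cores on either strand. ACGTG on the opposite strand reads as CACGT, and in the same way GCGTG reads as CACGC.
GBE1, chr3:81761646-81761895, minus strand: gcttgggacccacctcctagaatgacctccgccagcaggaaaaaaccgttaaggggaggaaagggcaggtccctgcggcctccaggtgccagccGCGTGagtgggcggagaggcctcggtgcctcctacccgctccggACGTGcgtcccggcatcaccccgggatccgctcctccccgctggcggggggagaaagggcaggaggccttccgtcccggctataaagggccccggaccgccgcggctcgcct
PPP1R3C, chr10:91633072-91633321, minus strand: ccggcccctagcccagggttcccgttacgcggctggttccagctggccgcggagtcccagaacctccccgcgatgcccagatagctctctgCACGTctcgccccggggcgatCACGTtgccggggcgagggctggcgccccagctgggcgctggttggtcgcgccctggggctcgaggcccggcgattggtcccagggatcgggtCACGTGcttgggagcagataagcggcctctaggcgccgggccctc
PYGB, chr20:25247835-25248084, plus strand: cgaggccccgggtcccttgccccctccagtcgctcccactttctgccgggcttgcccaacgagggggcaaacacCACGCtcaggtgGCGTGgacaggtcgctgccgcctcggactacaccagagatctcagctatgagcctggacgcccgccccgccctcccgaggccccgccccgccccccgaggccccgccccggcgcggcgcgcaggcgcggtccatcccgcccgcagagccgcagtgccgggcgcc
PYGL, chr14:50944484-50944733, minus strand: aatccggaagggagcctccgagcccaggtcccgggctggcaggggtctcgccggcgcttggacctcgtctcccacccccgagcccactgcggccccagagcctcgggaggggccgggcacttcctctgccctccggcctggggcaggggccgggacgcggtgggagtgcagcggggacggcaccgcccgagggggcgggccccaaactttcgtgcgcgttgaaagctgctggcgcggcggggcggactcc
GBE1 held 1 match of GCGTG and 1 of ACGTG, with their first bases 156 and 112 bases before the start. PPP1R3C held 4 matches, all of ACGTG or its complement, and the matches at 45 and 44 bases overlap in a single palindrome. PYGB held 2 matches of GCGTG or its complement, at 176 and 164 bases, and PYGL held 0 in this window. RefSeq windows were found for 8 of the 9 members, PPP1R3B being the one without an entry. Of these 8, 7 held a match in at least 1 window and 4 held ACGTG, against 64.1% and 28.2% of the 11847 tested genes with a window. Of all 35116 windows 43.2% held a match. Such a match is a string of 5 letters, and binding was not measured here. The genes lie, on GRCh38.p14, at chr3:81489703-81761645 (GBE1), chr10:91628442-91633071 (PPP1R3C), chr20:25248085-25298012 (PYGB), chr14:50905217-50944483 (PYGL), chr19:48968130-48993309 (GYS1), chr1:63593411-63660245 (PGM1), chr2:63840969-63891560 (UGP2) and chr4:76306733-76311130 (STBD1).

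Per length, as transcripts per 1 M (TPM), the members fell into an abundant and a scarce group. GYS1 was at 27.4 ± 2.33 TPM and PYGB at 25.7 ± 4.76 TPM (mean ± SD over 16 libraries), followed by GBE1 at 20.9 ± 5.87 TPM and UGP2 at 19.7 ± 2.42 TPM. Each of these 4 overlapped its neighbour in the order, while the first and the last did not overlap, with GYS1 at 24.0 TPM or more and UGP2 at 23.1 TPM or less in every library. PPP1R3B was at 12.9 ± 4.90 TPM and PGM1 at 12.5 ± 1.16 TPM, again within their spread. PPP1R3C (3.69 ± 1.47 TPM), PYGL (2.72 ± 1.48 TPM) and STBD1 (2.49 ± 0.70 TPM) were lowest and overlapped. PYGB was thus the main phosphorylase mRNA, with PYGM, the muscle isoform, at a median of 0.39 TPM. GYS2, the liver synthase, had 0 to 3 counts a library, and GYG2, a liver form of the primer glycogenin, had 0 counts in all 16, which allows up to 0.0812 CPM in the shallowest library. STBD1 counts were not whole numbers in 15 of 16 libraries, and the gene overlaps a readthrough transcript, FAM47E-STBD1, on the same strand with 0 to 114 counts, so that its level is uncertain. PYGB and PGM1 overlap ABHD12 and ITGB3BP on the opposite strand. The library kit keeps the strand, but the strand setting of the counting is not given in the sources used here.

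**Figure D1:**
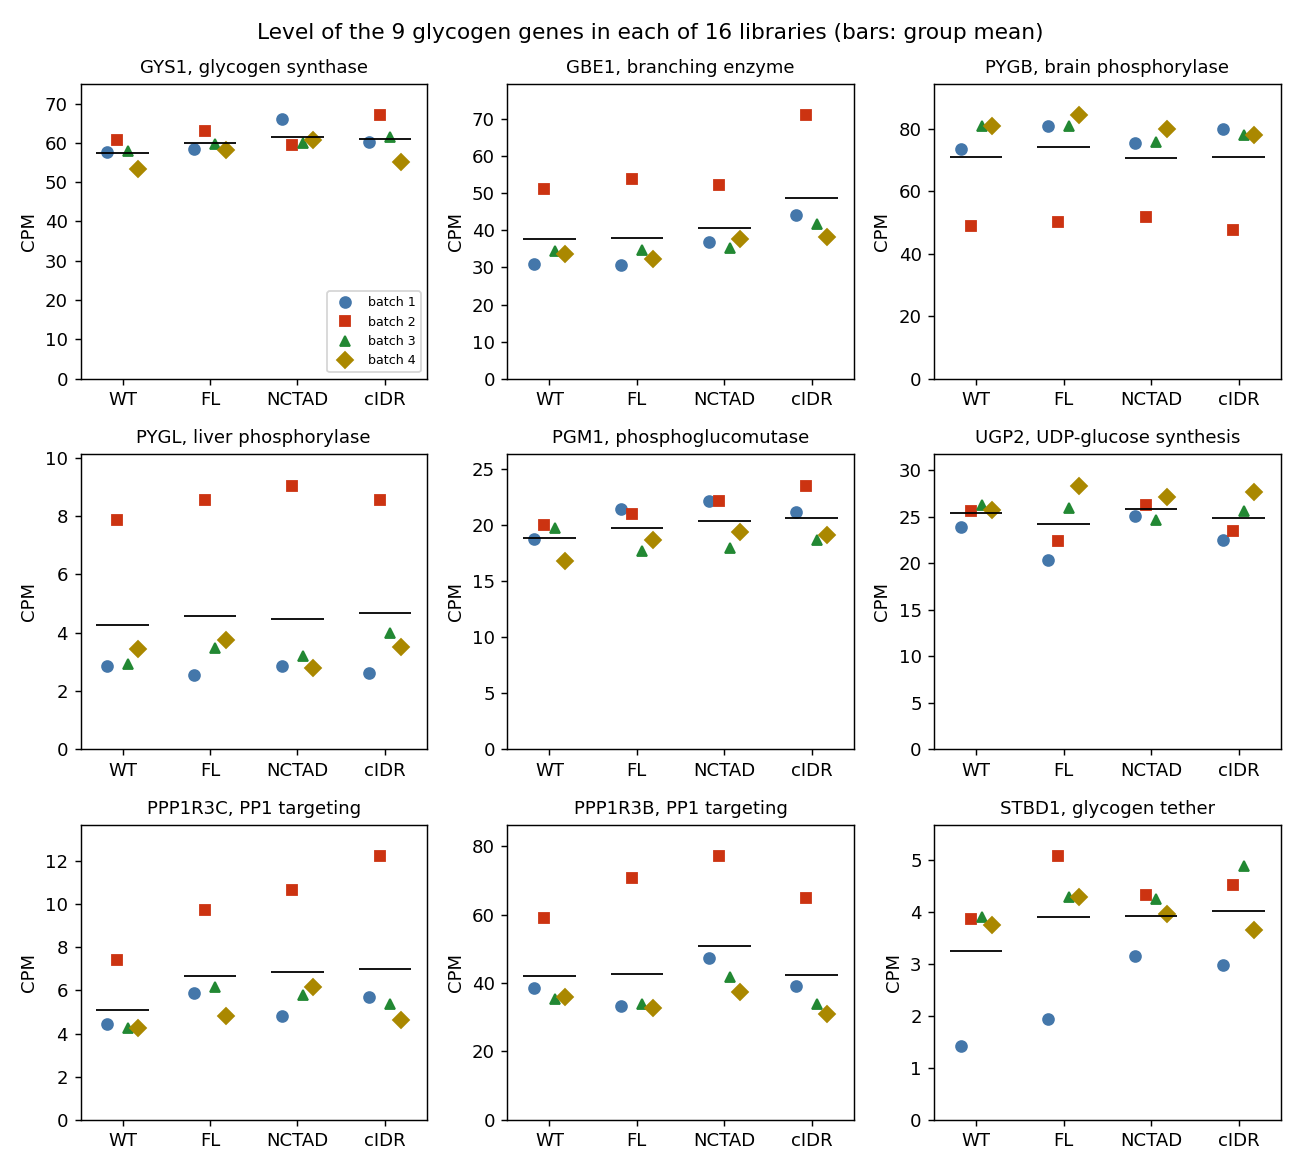
Level of each of the 9 genes in the 16 libraries, in CPM on a linear axis from 0, by group, with a point per library shaped and coloured by batch and a bar at the group mean. The 4 batch 2 libraries stand above all others for GBE1, PYGL, PPP1R3C and PPP1R3B and below all others for PYGB.

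Batch 2 stood apart from the other batches in most of these genes, with the branching enzyme, the liver phosphorylase and both phosphatase-targeting subunits higher and the brain phosphorylase lower. In the fit with group and batch, 6 of the 9 members were called higher and 1 lower in batch 2 than in the mean of batches 1, 3 and 4 (edgeR, adjusted p under 0.05). Over all 19530 genes tested, 53.9% were called in this comparison, 27.7% higher and 26.1% lower. A call in batch 2 was therefore common, and the members are described by size. The median log2 difference was 0.38 over the 9 members, which is the value of STBD1, and 0.035 over all genes tested. Without batch 1 the median of the members was 0.23, the value of PGM1. For 4 members all batch 2 libraries lay above the other 12, and for 1 they lay below, where 14.4% and 14.6% of all genes tested did so. Batch 2 was singled out with earlier results of these data known, and it holds 1 library from each group. As it is a single batch, the p-values and standard errors of this comparison measure only the spread between libraries. They do not measure the spread between batches. In bulk RNA, fewer cells of a type and less RNA per cell cannot be told apart.

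PYGL, the liver phosphorylase, had the largest difference of the 9. Batch 2 gave 7.86 CPM (WT), 8.56 (FL), 9.05 (NCTAD) and 8.57 (cIDR). In batches 1, 3 and 4 the WT libraries had 2.86, 2.92 and 3.43 CPM and the FL libraries 2.55, 3.48 and 3.74. The NCTAD libraries had 2.86, 3.20 and 2.78 CPM there and the cIDR libraries 2.63, 4.01 and 3.50. Every batch 2 library was thus above every other library. The log2 difference was 1.435 ± 0.089 (SE; edgeR adjusted p 7.928e-09). Batch accounted for 96.2% of the variance of its log2 CPM, against a median of 53.9% over all genes tested. Counts behind these levels were 97 to 487 a library.

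PYGB, the brain phosphorylase, went the other way. In batch 2 it had 48.9 CPM (WT), 50.2 (FL), 51.9 (NCTAD) and 47.5 (cIDR), and between 73.7 and 84.4 CPM in the other 12 libraries. The batch 2 libraries did not overlap the others, and the 4 groups lay close together within batch 2. The log2 difference was −0.67 ± 0.040 (adjusted p 5.571e-09), with 97.5% of the variance due to batch. The low values of PYGB and the high values of PYGL thus fell on the same 4 libraries. Per length PYGB stayed the more abundant, with at least 17.0 TPM in any library where PYGL reached at most 5.52 TPM.

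Both subunits that target protein phosphatase 1 rose in batch 2. PPP1R3B, which is known from liver, had 58.9 CPM (WT), 70.7 (FL), 77.1 (NCTAD) and 65.0 (cIDR) in batch 2, and 30.8 to 47.2 CPM elsewhere, a log2 difference of 0.90 ± 0.056 (adjusted p 8.598e-09). PPP1R3C, also called protein targeting to glycogen, had 7.39 CPM (WT), 9.75 (FL), 10.7 (NCTAD) and 12.2 (cIDR) in batch 2, and 4.24 to 6.17 CPM elsewhere, a difference of 0.94 ± 0.091 (adjusted p 7.347e-07). In neither gene did any other library reach the lowest of batch 2. Of the 7 other tested genes of this family and the phosphatase itself, none was called higher. PPP1R3E (−0.46 ± 0.11), PPP1R3F (−0.32 ± 0.071) and the catalytic subunit PPP1CA (−0.25 ± 0.047) were called lower.

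Among GBE1, PGM1, GYS1 and UGP2, the branching enzyme GBE1 had the largest difference. GBE1 had 51.3 CPM (WT), 53.9 (FL), 52.4 (NCTAD) and 71.1 (cIDR) in batch 2, against 30.6 to 44.3 CPM in the other 12 libraries, a difference of 0.67 ± 0.051 (adjusted p 7.131e-08). PGM1 was called with a difference of 0.17 ± 0.052 (adjusted p 0.01316), but its batch 2 mean of 21.6 ± 1.48 CPM was close to the 20.8 ± 1.46 CPM of batch 1, and batches 3 and 4 were lower at 18.5 ± 0.93 and 18.5 ± 1.16 CPM (SD, n = 4 each). Without cIDR 2 the PGM1 difference was 0.14 and not called (adjusted p 0.08207). GYS1, at 53.4 to 67.0 CPM, differed by 0.085 ± 0.043 (adjusted p 0.1145) and UGP2, at 20.3 to 28.3 CPM, by −0.044 ± 0.055 (adjusted p 0.5253). GYS1 was called without batch 1 (0.11, adjusted p 0.02563), without NCTAD 1 (0.11, adjusted p 0.03703) and without NCTAD 2 (0.13, adjusted p 0.03079).

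STBD1 was called higher in batch 2 by 0.38 ± 0.13 (adjusted p 0.02485), and here the low libraries were those of batch 1. Batch 1 gave 1.42 CPM (WT), 1.94 (FL), 3.16 (NCTAD) and 2.98 (cIDR), whereas the other 12 libraries lay between 3.66 and 5.07 CPM. Batch 2, at 4.45 ± 0.50 CPM, was within reach of batch 3 at 4.33 ± 0.40 CPM (SD, n = 4 each). Without batch 1 the difference was 0.11 and not called (adjusted p 0.2658). It was also not called without WT 2 (0.36, adjusted p 0.08471) or without FL 2 (0.30, adjusted p 0.1276).

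**Figure D2:**
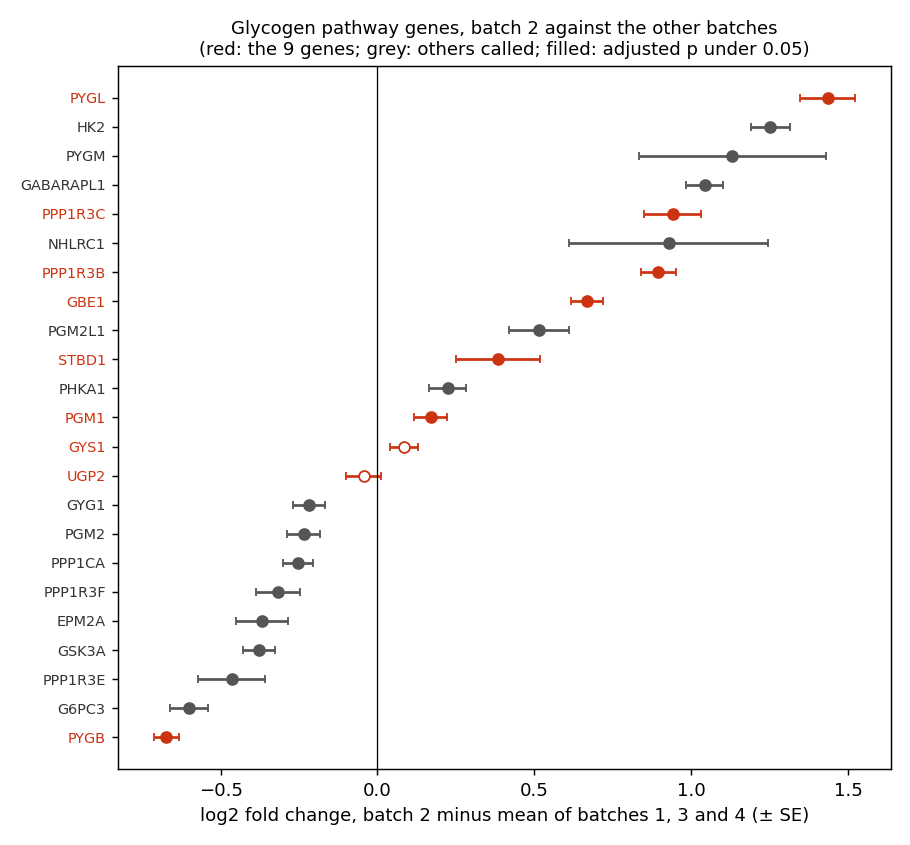
Log2 fold change of batch 2 against the mean of batches 1, 3 and 4 with its SE, for the 9 members in red, filled where the adjusted p was under 0.05, and in grey for the genes of a wider glycogen list that passed the test, ordered by size. PYGL is the highest at 1.435 and PYGB the lowest at −0.67, and of the grey genes 6 lie right of 0 and 8 left of it.

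A wider list of 41 glycogen genes, of which 37 passed the filter, was read beside the members. Of the 28 tested genes that are no members, 6 were called higher and 8 lower in batch 2, where 27.7% and 26.1% of all genes tested were. The median difference was −0.050 over the 28 genes and 0.035 over all genes tested. HK2, an inducible hexokinase, rose by 1.25 ± 0.061 (adjusted p 5.752e-10), from 28.3 to 40.5 CPM in the other batches to 64.7 to 105.4 CPM in batch 2. GABARAPL1, to which STBD1 binds in autophagy of glycogen, rose by 1.04 ± 0.060 (adjusted p 3.533e-09). PYGM rose by 1.13 ± 0.30 on 7 to 85 counts, NHLRC1 (the ubiquitin ligase malin) by 0.93 ± 0.32 on 2 to 23 counts, PGM2L1 by 0.52 ± 0.095 and the phosphorylase kinase subunit PHKA1 by 0.22 ± 0.059. Among genes called lower, G6PC3, a glucose phosphatase of most tissues, changed by −0.60 ± 0.060 (adjusted p 9.93e-07) and the synthase kinase GSK3A by −0.38 ± 0.051. EPM2A, the glycogen phosphatase laforin, changed by −0.37 ± 0.083, PGM2 by −0.24 ± 0.052 and the primer GYG1 by −0.22 ± 0.052.

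Other measures moved with batch 2 as well. Over all genes tested, 27.7% were called higher and 26.1% lower in this comparison. Of 15 hypoxia-responsive reference genes, a list chosen with earlier results known, 13 were called higher, with a median difference of 1.495. Their summed level was 1003 to 1660 CPM in batch 2 and 373.9 to 661.9 CPM in the other 12 libraries. Of the 9 adrenergic markers 4 were called higher and 3 lower, with summed levels of 6839 to 7466 CPM in batch 2 and 7238 to 8906 CPM elsewhere. Of the 6 mesenchymal markers 5 were tested, of which 1 was called higher and 3 lower. The 6 together summed to 34.0 to 39.6 CPM in batch 2 and 29.6 to 57.1 CPM elsewhere. PYGL and PPP1R3B are known from liver, and the hepatocyte markers summed to 5 to 12 counts in batch 2 and 1 to 13 counts elsewhere. The part of the hypoxia genes and of the cell-state markers in the batch 2 differences was not tested.

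The comparisons of each construct with WT asked how the forms of HIF-2α change these genes. Without a batch term, none of the 9 members was called by edgeR in FL, NCTAD or cIDR, where 0.0102%, 0.0256% and 0.0102% of all genes tested were called. At an unadjusted p under 0.05 the count was also 0 of 9 in each, where 1.14%, 1.42% and 1.37% of all genes passed, and DESeq2 without a batch term called none of them. With the batch as a replicate block in edgeR the unadjusted count was 1 of 9 in FL, 2 in NCTAD and 2 in cIDR. These were PPP1R3C in each, PPP1R3B in NCTAD and GBE1 in cIDR. The share of all genes at that threshold with the block is not given here. For no member did the libraries of a construct lie all above or all below those of WT. Of all genes tested, 0.456%, 0.876% and 0.876% lay all above and 0.358%, 0.558% and 0.594% all below. This rule ignores the pairing by batch. It cannot decide for GBE1, PYGL, PPP1R3C, PPP1R3B and PYGB, because batch 2 stood apart in them. In PYGL, for example, every construct library would have to exceed WT 2 at 7.86 CPM to lie all above. Outside batch 2 the highest library of this gene was cIDR 3 at 4.005 CPM. The 3 comparisons with WT share the 4 WT libraries. Over the 9 members the median log2 fold change was 0.060 (FL), 0.11 (NCTAD) and 0.13 (cIDR), against 0.014, 0.019 and 0.0097 over all genes tested.

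Within batches, GBE1 was the member that passed the test. It was higher in cIDR than in WT in 4 of 4 batches, at 44.3 against 30.9 CPM in batch 1, 71.1 against 51.3 in batch 2, 41.9 against 34.5 in batch 3 and 38.3 against 33.6 in batch 4. The differences in log2 CPM were 0.52, 0.47, 0.28 and 0.19, and in each batch cIDR was the highest of the 4 groups. With the batch as a replicate block the log2 fold change was 0.37 ± 0.066 (adjusted p 0.01862), and 0.486% of all genes tested were called. Without the block it was 0.38 ± 0.23 (adjusted p 0.9999). Leaving out batch 2 with the block gave 0.32 ± 0.077, not called (adjusted p 0.3283). Leaving out single libraries gave 0.33 to 0.42, with the call lost without WT 1, WT 2, cIDR 1, cIDR 2 or cIDR 3 (adjusted p up to 0.1241) and kept without WT 3, WT 4 or cIDR 4. DESeq2 with the block called it at 0.36 (adjusted p 0.000179).

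FL and NCTAD differed less from WT in GBE1. In FL the levels were 30.6, 53.9, 34.7 and 32.3 CPM in batches 1 to 4, higher than WT in 2 batches and lower in the other 2, and the blocked fold change was 0.0024 ± 0.066. In NCTAD they were 36.9, 52.4, 35.4 and 37.6 CPM, higher than WT in 4 of 4 batches, with a blocked fold change of 0.12 ± 0.066 (adjusted p 0.9018). Between constructs, cIDR was above FL by 0.36 ± 0.066 (adjusted p 0.1755) and above NCTAD by 0.25 ± 0.066 (adjusted p 0.9998) with the block, in 4 of 4 batches each, as were 4.87% and 4.36% of all genes tested. Neither was called by edgeR, which called 0.0307% and 0.00512% of all genes in these comparisons with the block and 0% without it. DESeq2 with the block called the difference between cIDR and FL at 0.37 (adjusted p 0.0006701). EPAS1 was also highest in cIDR within each batch, from 2189 CPM in cIDR 2 to 5852 CPM in cIDR 3, and its part in the GBE1 level was not tested.

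PPP1R3C was above WT in all 3 construct groups and in 4 of 4 batches each, as were 1.33% of all genes tested, and no other member was. In batches 1 to 4 the WT libraries had 4.45, 7.39, 4.27 and 4.24 CPM and the FL libraries 5.90, 9.75, 6.17 and 4.80. The NCTAD libraries had 4.81, 10.7, 5.77 and 6.17 CPM and the cIDR libraries 5.68, 12.2, 5.37 and 4.61. Each construct library was above the WT library of its batch, by 0.11 (NCTAD 1) to 0.72 (cIDR 2) in log2 CPM, and the order of the 3 constructs changed from batch to batch. With the block the log2 fold change was 0.38 ± 0.12 in FL (adjusted p 0.681), 0.41 ± 0.12 in NCTAD (adjusted p 0.305) and 0.40 ± 0.12 in cIDR (adjusted p 0.3712), none called. The largest difference between constructs was 0.033 ± 0.12, of NCTAD above FL.

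PPP1R3B had a different order. NCTAD was the highest group in each batch, at 47.2 CPM against 38.5 in WT in batch 1, 77.1 against 58.9 in batch 2, 41.8 against 35.2 in batch 3 and 37.3 against 36.0 in batch 4. The blocked log2 fold change of NCTAD was 0.24 ± 0.072 against WT (adjusted p 0.3321) and 0.27 ± 0.072 against FL (adjusted p 0.9963). That of cIDR against NCTAD was −0.27 ± 0.072 (adjusted p 0.9998), with a difference between −0.30 and −0.25 in log2 CPM in each of the 4 batches. Of all genes tested, 6.02% were higher in 4 of 4 batches in NCTAD than in FL and 6.03% lower in cIDR than in NCTAD. None of the 3 differences was called. FL and cIDR differed from WT by −0.030 ± 0.072 and −0.028 ± 0.072.

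**Figure D3:**
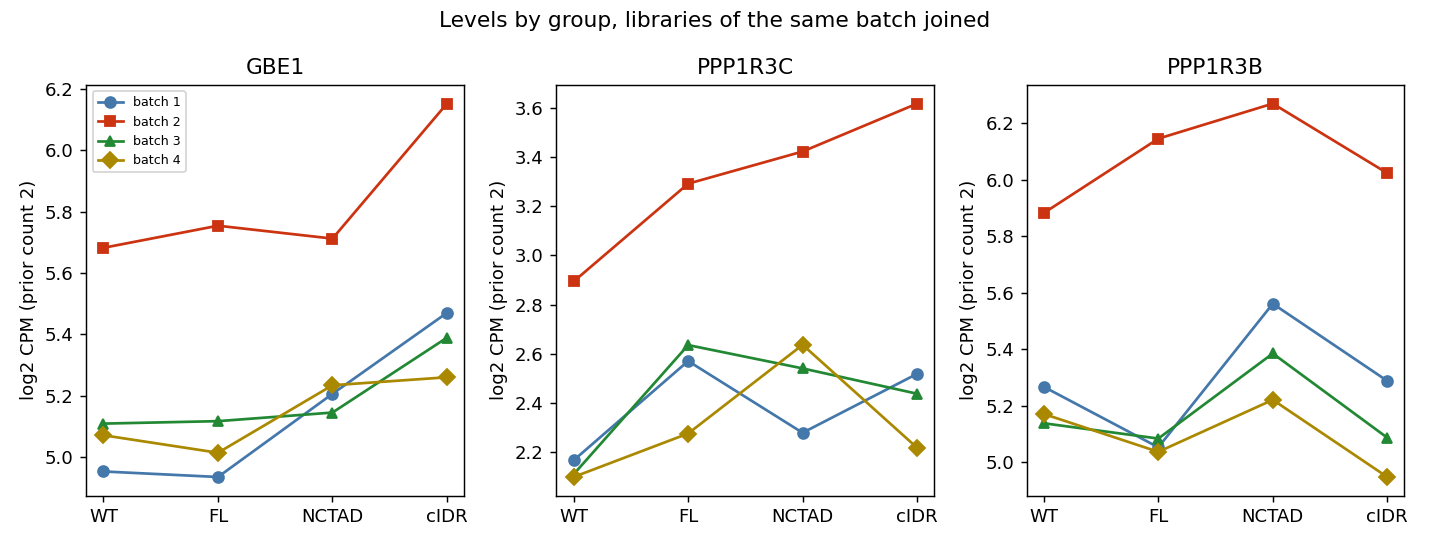
Log2 CPM (prior count of 2) of GBE1, PPP1R3C and PPP1R3B by group, with the 4 libraries of a batch joined by a line. Within each line cIDR is the highest group for GBE1, WT is the lowest for PPP1R3C and NCTAD is the highest for PPP1R3B, while the line of batch 2 lies above the other 3.

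The remaining members showed small differences from WT. GYS1 was higher in 4 of 4 batches in FL and in cIDR, with blocked fold changes of 0.061 ± 0.054 and 0.086 ± 0.054, and in 3 of 4 in NCTAD, at 0.10 ± 0.054. STBD1 was above WT in 4, 4 and 3 of the 4 batches in FL, NCTAD and cIDR, by 0.28 ± 0.17, 0.35 ± 0.17 and 0.36 ± 0.17. The largest log2 CPM differences were those of batch 1, 1.13 in NCTAD and 1.05 in cIDR, where WT 1 was the lowest library of the gene. The readthrough FAM47E-STBD1 went the other way there, with 39 counts (WT 1), 4 (FL 1), 0 (NCTAD 1) and 3 (cIDR 1), beside 68, 80, 136 and 110 counts of STBD1. Its part in the STBD1 differences was not tested. PYGB differed from WT by 0.058 ± 0.047 in FL, where the libraries of batch 3 were tied at 81.1 CPM, and fell on both sides of WT in NCTAD and cIDR. PYGL differed by 0.088 ± 0.12, 0.016 ± 0.12 and 0.13 ± 0.12, PGM1 by 0.062 ± 0.065, 0.11 ± 0.065 and 0.13 ± 0.065, and UGP2 by −0.071 ± 0.067, 0.025 ± 0.067 and −0.036 ± 0.067. None was called with the block, under which 0.102% (FL) and 0.456% (NCTAD) of all genes tested passed. In all, 4 members in FL, 4 in NCTAD and 3 in cIDR were higher in 4 of 4 batches, where 5.33%, 8.85% and 10.5% of all genes tested were. The 4 in FL include PYGB with its tie in batch 3, since no minimum difference was set. None was lower in all 4, where 3.94%, 6.48% and 7.12% were.

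**Figure D4:**
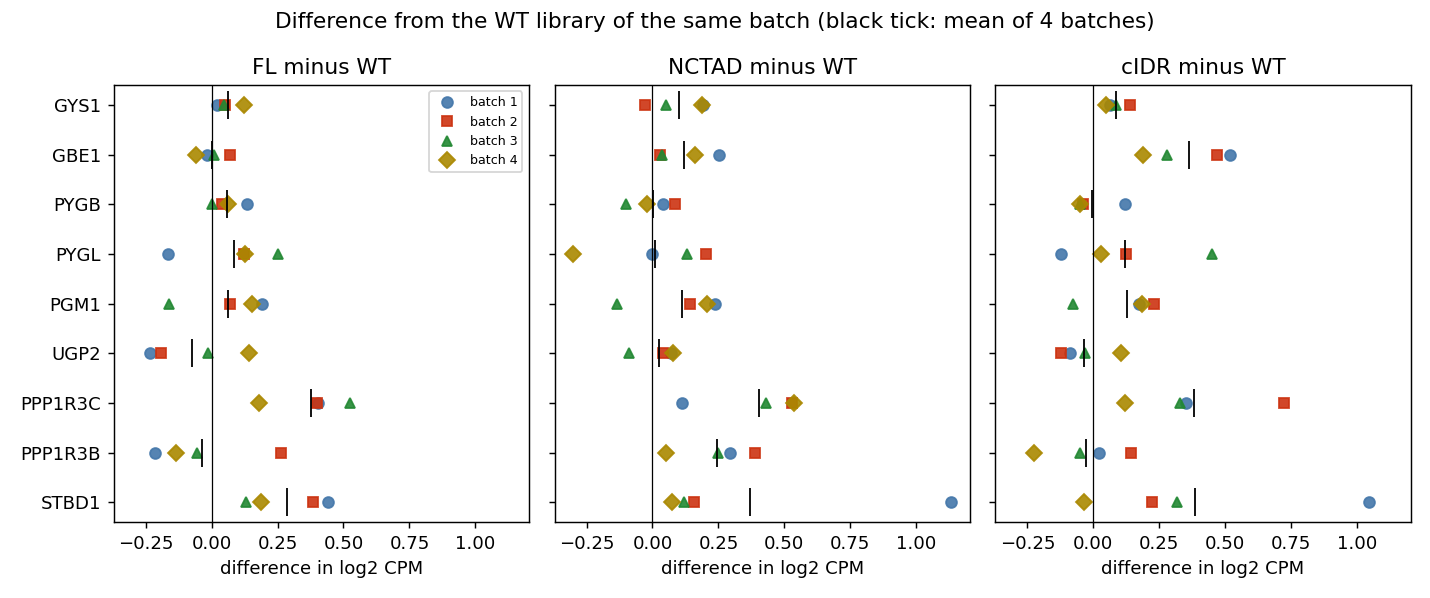
Difference in log2 CPM between each construct library and the WT library of its batch, for the 9 genes, with a point per batch and a tick at the mean of the 4. All 4 points lie right of 0 for PPP1R3C in all 3 panels and for GBE1 in the cIDR panel, and the STBD1 points of batch 1 in NCTAD and cIDR lie beyond 1.

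In the rest of the wider glycogen list, HK2 was the gene called against WT. It was higher in cIDR in 4 of 4 batches, with a blocked fold change of 0.40 ± 0.081 (adjusted p 0.04186) and an unblocked one of 0.47 ± 0.42 (adjusted p 0.9999). In FL and NCTAD HK2 was higher in 4 of 4 batches by 0.30 ± 0.081 (adjusted p 0.4764) and 0.28 ± 0.081 (adjusted p 0.3131). GAA, the lysosomal glucosidase that degrades glycogen, was next in FL, at 0.17 ± 0.069 (adjusted p 0.9198). NHLRC1 in NCTAD lay below WT in every library, at −1.004 ± 0.44 on 4 to 15 counts in these groups (adjusted p 0.792). With the block, the median over the 28 genes that are no members was −0.016 (FL), 0.016 (NCTAD) and −0.0032 (cIDR). Of the hypoxia reference genes, 0, 6 and 9 of 15 were called higher with the block in FL, NCTAD and cIDR, where 0.102%, 0.456% and 0.486% of all genes tested were called, and 0 in each without it. Of the adrenergic markers, TH and DBH were called higher with the block in NCTAD and in cIDR and none without it. Their part in the member differences was not tested.

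The difference between transfected and WT libraries was then compared between batch 2 and the other batches. None of the 9 members was called, and 0.00512% of all genes tested were. PPP1R3B had the smallest p of the members, with an effect that was larger in batch 2 by 0.27 ± 0.12 on the log2 scale (unadjusted p 0.04197, adjusted p 1). PPP1R3C came next in size at 0.22 ± 0.22 (adjusted p 1). For GBE1 the value was 0.040 ± 0.13 and for PYGL 0.11 ± 0.23. Batch 2 held 1 WT library, on which each of these values rests. For EPAS1 itself the value was -1.89 ± 0.29, a smaller difference in batch 2, which was not called after adjustment (unadjusted p 1.678e-05, adjusted p 0.09981). EPAS1 was at 28.1 CPM in WT 2, the highest WT library, and at 1320 CPM in NCTAD 2 and 2189 CPM in cIDR 2, the lowest of their groups, while FL 2 at 2001 CPM was above FL 1 at 1691 CPM. The part of EPAS1 in the members' values was not tested.

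The members with the widest range of log2 CPM over the 16 libraries were PYGL (1.81) and STBD1 (1.81). The tested genes outside the wider list with levels most like those of PYGL were SLC7A11 (Pearson r 0.979 over 16 libraries), CCDC80 (0.977) and AKNA (0.976). The batch 2 libraries stand apart from the rest in PYGL, and after each batch mean was subtracted the most alike genes were ACSS1 (0.816), MTHFD2P7 (0.814) and C2orf27A (0.787). For STBD1 they were FRRS1 (0.902), TRIM21 (0.896) and SIDT2 (0.893), and after subtraction PRR3 (0.894), PLPPR2 (0.893) and METRNL (0.891). All share the same libraries and depth, and they were picked as the highest among 19530 genes, so the values are a description only.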

How the data were processed

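The data were RNA-seq libraries from poly(A)-selected RNA, made with a stranded kit. Per the labels' protocols the input was 250 ng and 13 cycles of PCR were run. The authors deposited estimated counts per gene and TPM values, both per the file headers. The submitters' processing notes name fastp, STAR, Salmon, featureCounts and GRCh38, without roles or versions, and the annotation release is not given in the sources used here. Columns were matched to samples by the library names in the labels, which call WT cells CTRL, FL cells WT and the line BE2c where the labels' titles give SK-N-BE(2). The deposited estimated counts, 15.52% of them not whole, were rounded. The TPM values that the authors deposited were used only to compare levels between genes.

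Counts were tested by quasi-likelihood in edgeR 4.0.16 (R 4.3.3) after TMM scaling and filterByExpr by group, in 1 fit over 16 libraries, and p-values were adjusted by Benjamini-Hochberg over all 19530 genes tested at a threshold of 0.05. Groups were compared without a batch term (biological coefficient of variation 0.245) and, as an alternative, with the batch as a replicate block (0.1082). Batch 2 was set against the mean of batches 1, 3 and 4 with group and batch as terms, and a term for transfected libraries in batch 2 was added to test whether the construct effect differed there. The SE was derived from the log2 fold change and its F statistic. CPM were computed on TMM-scaled totals, and a prior count of 2 was added only for log2 values. The labels give each replicate number as a batch, so the numbers pair the samples. Deviations from the group means had a mean correlation of 0.308 for libraries sharing a number (0.0674 to 0.712) and of −0.0945 for the others. No library was a copy of another of its group (chi-square per degree of freedom of at least 6.96). Totals of 38.57 to 56.07 M counts allow a count of 0 to stand for up to 3 counts, at most 0.0812 CPM. This covers counting error only.

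The 9 members, the wider glycogen list, the hypoxia and marker lists and the tests were chosen with earlier results of these data known. Named beside the members were EPAS1, each gene of the wider list that was called, the 3 with the smallest p against WT with the block, and for the 2 members of widest range the 3 most alike genes. GYG2, GYS2 and the marker genes were named in addition, as genes whose level or absence bears on the isoforms. Alternatives were DESeq2 1.42.0, median-of-ratios size factors, no low-count filter, and leaving out each library or batch. Gene positions and promoter windows were taken from RefSeq tables of GRCh38.p14. The fits were tested on simulated data, and plots were made in Python 3.11.15 with matplotlib 3.10.9. All genes of the wider list enter its counts and medians, and 1 of them is not reported here by name.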

Additional observations from a re-analysis of the deposited data

Results flagged for a closer look

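For each of the 9 genes, the highest and the lowest CPM were examined within each group and within each batch, 72 sets of 4 libraries in all, and 14 sets held a library whose gap to its nearest neighbour was, relative to the range of the set, above the critical value of Dixon's test for 4 values. Chance alone would give about 1 in 20 for independent sets, but the 4 groups share their batches. Over all genes tested, 9.49% of the sets within groups were marked, 6.9% by the batch 2 library, and 5.51% of the sets within batches. The members were named with earlier results of these data known, and nothing particular to them is read from their counts.

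Within groups 11 of 36 sets were marked, 10 of them by the batch 2 library. High values were those of PYGL in WT 2 (7.86 CPM) and NCTAD 2 (9.05 CPM), PPP1R3C in WT 2 (7.39 CPM) and cIDR 2 (12.2 CPM), PPP1R3B in WT 2 (58.9 CPM) and FL 2 (70.7 CPM), and GBE1 in NCTAD 2 (52.4 CPM). Low values were those of PYGB in FL 2 (50.2 CPM), NCTAD 2 (51.9 CPM) and cIDR 2 (47.5 CPM). The remaining one was STBD1 in WT 1, which at 1.42 CPM lay below the 3 other WT libraries, of which the nearest was at 3.76 CPM.

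Within batches 3 of 36 sets were marked. GBE1 in cIDR stood above the other groups in batch 2 (71.1 CPM, the next at 53.9 CPM) and in batch 3 (41.9 CPM, the next at 35.4 CPM). PPP1R3B in NCTAD stood above the others in batch 3 (41.8 CPM, the next at 35.2 CPM).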

How the results depend on the processing

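The replicate block, which pairs the libraries of a batch, moved the number of genes called from 2 to 20 in FL against WT, from 5 to 89 in NCTAD against WT and from 2 to 95 in cIDR against WT, and from 0 to 6 in cIDR against FL and 0 to 1 in cIDR against NCTAD. GBE1 in cIDR against WT was the 1 call among the 9 members that the block changed. DESeq2 without the block called 11, 17 and 8 genes against WT, 2 in NCTAD against FL and 3 in cIDR against NCTAD, and with the block 58, 168 and 156 against WT, 12 in NCTAD against FL, 46 in cIDR against FL and 21 in cIDR against NCTAD. The blocked fit without batch 2 called 46 in cIDR against WT, 5 in NCTAD against FL, 10 in cIDR against FL and 0 in cIDR against NCTAD.

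Leaving out single libraries gave 2 to 4 genes in NCTAD against WT without the block. With the block it gave 10 to 23 in FL, 42 to 83 in NCTAD and 49 to 84 in cIDR against WT, 0 to 6 in NCTAD against FL, 0 to 8 in cIDR against FL and 0 to 2 in cIDR against NCTAD. The test of the construct effect in batch 2 called 1 gene, and 12 with no low-count filter, 13 with DESeq2 and 1 to 6 without single libraries. It could not be fitted without WT 2.

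Of the 54 differences between groups (9 members in 6 comparisons), 34 turned sign under at least 1 alternative without the block and 21 with it, none of them called. Among the differences that had the same sign in 4 of 4 batches, 6 turned sign without the block when a single library was left out: PYGB in FL against WT (−0.085 to 0.21) and in cIDR against FL (−0.21 to 0.087), GBE1 in NCTAD against WT (−0.039 to 0.29), and PPP1R3B in NCTAD against WT (−0.0034 to 0.47), NCTAD against FL (−0.020 to 0.61) and cIDR against NCTAD (−0.56 to 0.0058). For GBE1 and PPP1R3B the library was NCTAD 2, without which NCTAD has no batch 2 library while the other group keeps its own. With the block, none of the 6 turned sign when a single library was left out. In the same order, PYGB ranged from 0.0327 to 0.0781 and from −0.0938 to −0.0465, and GBE1 from 0.080 to 0.17. PPP1R3B ranged from 0.176 to 0.297, from 0.209 to 0.343 and from −0.303 to −0.24. The cause was not tested. Of 198 alternatives for the 9 members in batch 2, 190 left direction and call as they were, and UGP2 turned sign without batch 4 (0.018). The calls of PYGL, PPP1R3C, PPP1R3B, GBE1 and PYGB held under all of these. Depth limits PYGL, PPP1R3C and STBD1, with as few as 97, 177 and 68 counts in a library.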
